A study of Mus musculus with 8 samples.

Results

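Of the 220894 regions that a bisulfite sequencing study of mouse glioma and astrocyte lines listed, 801 overlapped a transfer RNA (tRNA) or small nucleolar RNA (snoRNA) gene on chromosomes 1 to 19 by at least 1 bp. The genes were those that RefSeq's annotation of GRCm38 (mm10) gives the biotype tRNA (391 genes) or snoRNA (1286 genes). Regions at tRNA genes numbered 201, regions at snoRNA genes 600, and 0 regions touched both kinds, of 214672 regions on these chromosomes. Together the regions covered 239 tRNA genes and 657 snoRNA genes, where a gene is called covered if any region shares at least 1 bp with it.

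The study took DNA from 8 cell lines, enriched it with a capture kit for methylation sequencing, and set mutant against wild-type IDH1. There were 4 lines from IDH mutant brain tumours, 2 lines from IDH wild-type brain tumours (labelled RAS glioma) and 2 IDH wild-type immortalized astrocyte lines named for PDGFA, of which 1 expressed exogenous wild-type IDH1. All lines came from N::TVA mice of mixed C57Bl/6, 129 and FVB/n background with the Cdkn2a lox/lox allele, and the genotype of the IDH mutant tumour lines and the astrocyte lines included Atrx lox/lox as well. Each region carries 1 score for the whole series and no value per line, so the groups could not be compared, there is no replicate error, depth is unknown, and cell identity could not be checked against markers. The sources used here do not say what the score counts. It is never below 100, so a gene outside all regions may still have had reads.

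A tRNA brings its amino acid to the ribosome, and most anticodons are encoded by several gene copies, which can be near-identical. tRNA genes are transcribed by RNA polymerase III from promoter elements inside the gene, the A box and the B box, which transcription factor IIIC binds. A snoRNA guides chemical modification of ribosomal and spliceosomal RNA, C/D box snoRNAs directing methylation of the ribose and H/ACA box snoRNAs pseudouridylation. Most vertebrate snoRNAs are cut from introns of host genes, many of which encode ribosomal proteins or factors of translation, whereas long tandem arrays of C/D box snoRNAs lie in the imprinted Prader-Willi and Dlk1-Dio3 domains.

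RefSeq's sequence tables for GRCm38.p6 contain 5 tRNA genes of the set whole, within the promoter window of another gene or a miRNA hairpin. They are shown because they let the internal promoter be read beside the region: the first 4 were covered and the last was not. Capitals mark the tRNA gene, lower case marks up to 40 bases of flank, and each is written on the strand that reads the B box letters GTTCNANNC (n-TItat14 in RNA letters, from the Mir1983 hairpin).
n-TTagt9: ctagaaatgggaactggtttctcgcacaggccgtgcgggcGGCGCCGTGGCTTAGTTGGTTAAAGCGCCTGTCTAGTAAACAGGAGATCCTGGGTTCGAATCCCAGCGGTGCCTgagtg
n-TRtcg5: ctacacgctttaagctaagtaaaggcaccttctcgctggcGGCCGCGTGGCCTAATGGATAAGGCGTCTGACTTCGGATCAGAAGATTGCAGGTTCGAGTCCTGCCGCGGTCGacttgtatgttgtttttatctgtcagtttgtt
n-TAagc16: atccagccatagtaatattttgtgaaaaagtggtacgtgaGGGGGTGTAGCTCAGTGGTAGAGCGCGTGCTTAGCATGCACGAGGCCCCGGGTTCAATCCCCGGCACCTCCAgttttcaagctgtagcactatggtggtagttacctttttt
n-TItat14: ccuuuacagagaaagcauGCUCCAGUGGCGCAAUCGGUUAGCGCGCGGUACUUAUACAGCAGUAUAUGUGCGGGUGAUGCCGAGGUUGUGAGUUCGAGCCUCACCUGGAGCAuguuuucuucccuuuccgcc
n-TVcac9: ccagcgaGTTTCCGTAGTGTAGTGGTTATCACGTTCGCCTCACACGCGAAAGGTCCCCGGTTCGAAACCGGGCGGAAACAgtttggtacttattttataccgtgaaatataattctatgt

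The shown stretches are chr7:35234765-35234883 (n-TTagt9, minus strand), chr7:79466379-79466523 (n-TRtcg5, plus strand), chr13:21222546-21222697 (n-TAagc16, plus strand), chr13:21896918-21897049 (n-TItat14, minus strand) and chr13:23446102-23446221 (n-TVcac9, minus strand). The B box letters began at base 54 of the n-TTagt9 gene, 53 of n-TRtcg5, 52 of n-TAagc16, 74 of n-TItat14 and 53 of n-TVcac9, counted from 1 at the first capital. On either strand, these letters occur in 3063 of 32851 promoter windows of 300 bases (9.32%), so a match describes the gene and is no evidence of binding. n-TRtcg5 lies inside the annotated span of Polg, which encodes the mitochondrial DNA polymerase, 1456 bp from the nearest protein-coding gene end, and lay whole in a 700 bp region with a score of 433. n-TTagt9 lay whole in a 1460 bp region scoring 620, n-TAagc16 in a 1610 bp region scoring 567, and n-TItat14 in an 800 bp region scoring 546. n-TVcac9 missed a 990 bp region scoring 590 by 7 bp.

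Both kinds of gene were covered more often than other genes of like length. tRNA genes were covered in 61.1% of cases (239 of 391, exact 95% interval 56.1 to 66.0%) and snoRNA genes in 51.1% (657 of 1286, 48.3 to 53.9%), while of all other annotated genes up to 200 bp long 16.6% were covered. Among those, miRNA genes reached 17.2% (195 of 1136) and snRNA genes, which encode spliceosomal RNAs, 9.67% (90 of 931). Of all annotated genes 67.3% were covered and of protein-coding genes 84%, but these are far longer, with a median of 17491 bp for protein-coding genes against 73 bp for tRNA and 130 bp for snoRNA genes. Counted from first to last region on each of these chromosomes, regions take up 4.82% of the bases. Here and below, intervals are Clopper-Pearson intervals that cover counting error only, and neighbouring or copied genes are not independent. The uncovered tRNA genes include Trnat-ugu, Trnap-ugg, Trnav-aac and Trnal-aag, which the annotation places at 8361 to 11797 of chromosome 11, and Trnav-cac at 1440395. All but Trnav-cac have, in order, the anticodons, lengths and spacing of n-TTtgt2, n-TPtgg4, n-TVaac7 and n-TLaag6 at 48853619 to 48857055 of chromosome 11. Whether they are second entries of those genes was not checked, nor whether regions could have been listed at their positions. The genes placed at 8361 to 11797 and at 1440395 count as uncovered here and below.

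**Figure D1:**
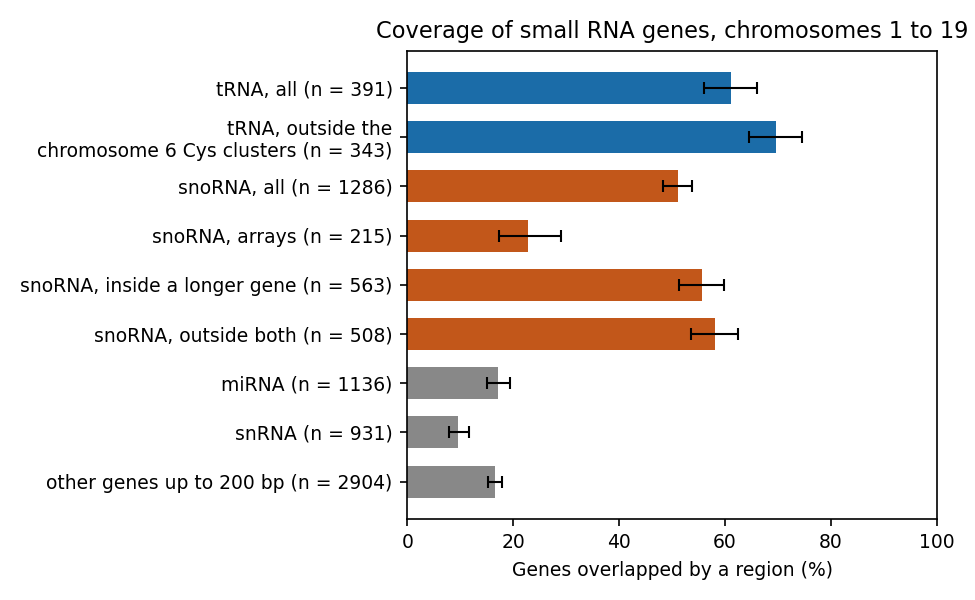
Share of genes covered by at least 1 bp of a region, in percent, by gene class (bars, with exact 95% intervals as error lines). tRNA genes outside the chromosome 6 cysteine clusters reached 69.7%, snoRNA genes in arrays 22.8%, and other genes up to 200 bp 16.6%.

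The main exception among the tRNA genes was cysteine. On chromosome 6, 48 tRNA-Cys genes with the anticodon GCA lie in a 39-gene cluster (48186318 to 48363603) and a 9-gene cluster (48133937 to 48164172), and 0 of the 48 were covered (exact upper bound 7.40%). The larger cluster holds 5 regions over 177286 bp, none at a tRNA gene, and they fill 1.29% of its bases. These 5 regions had a median score of 558 and a highest score of 4937. The larger cluster also has a stretch of 76270 bp without any region. Of 214653 gaps between neighbouring regions, 4384 are at least as long (2.04%). The genes of both clusters lay a median 12430 bp from the nearest region. Of the 9 tRNA-Cys genes elsewhere, 8 were covered, the exception being n-TCgca53. The highest of these 8 scored 1245 (n-TCgca57) and 1203 (n-TCgca47). Without the chromosome 6 clusters, 239 of 343 tRNA genes were covered (69.7%, 64.5 to 74.5%). Sequence identity within the clusters was not analysed here, and near-identical copies would make such values uncertain: the sources used here do not say how reads that match several copies were treated, and its part in the lack of regions was not tested.

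Every other amino acid had regions at the majority of its genes. After Cys (8 of 57 covered, 14.0%), the lowest shares were for His (6 of 11) and Asp (9 of 16), and the highest for Trp (7 of 8), Phe (6 of 7) and Arg (19 of 23). By anticodon, among families of at least 5 genes, Gln CUG stood at 10 of 10, Arg UCG at 5 of 5 and Ala AGC at 12 of 13. At the other end stood Cys GCA, Gln UUG with 2 of 5 and Leu CAG with 4 of 10. Gln thus holds a family with every gene covered and one with few, and regions at its genes scored 400 to 1768. All 48 anticodon sets and 20 amino acids were read from the gene symbols, which mark neither selenocysteine nor initiator tRNA.

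Most of the largest clusters outside chromosome 6 lie on chromosome 13, beside the histone gene clusters, where 82 of 105 tRNA genes were covered (78.1%). The cluster at 21200204 to 21279768 had 13 of 13 genes covered and that at 21882033 to 21940995 had 17 of 18. By contrast, clusters at 23397060 to 23467165 and 23498106 to 23530419 had 14 of 22 and 7 of 14. Outside it, the cluster at 96382911 to 96501518 of chromosome 3 had 11 of 19 genes covered, while smaller clusters on chromosome 19 (8 genes) and chromosome 17 (7 genes) were covered in full. Genes in the 19 clusters of at least 5 genes were covered in 143 of 242 cases (59.1%), 143 of 194 without the chromosome 6 clusters (73.7%), and genes outside clusters in 96 of 149 (64.4%). The intervals of the latter pair, 66.9 to 79.8% and 56.2 to 72.1%, overlap.

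**Figure D2:**
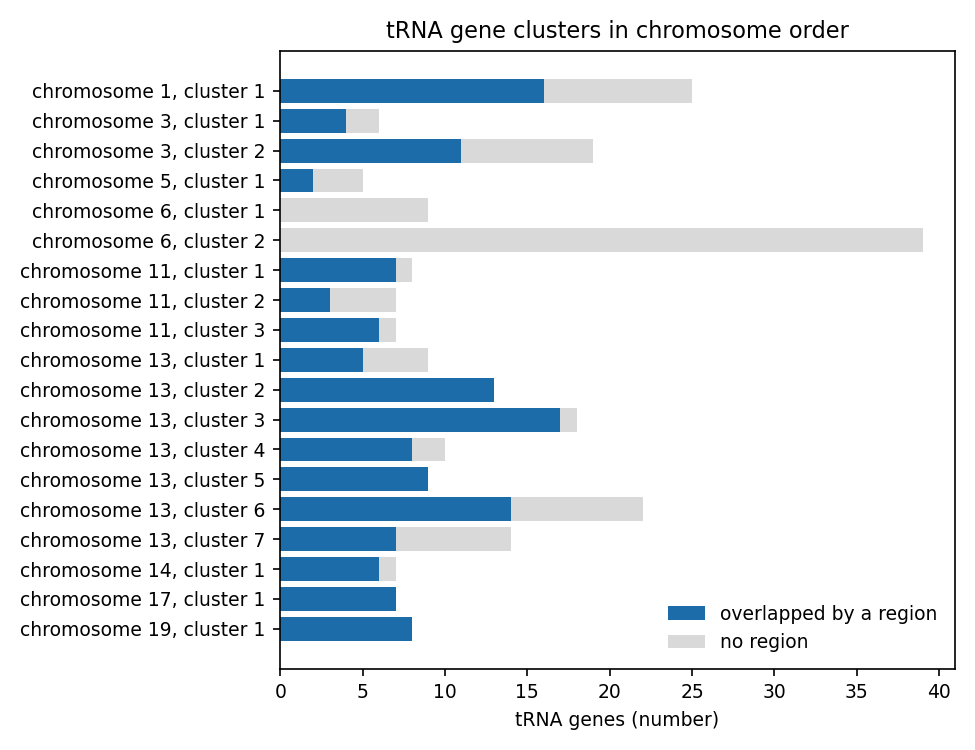
Number of tRNA genes in each cluster of at least 5 genes, split into covered and not covered by a region. Both chromosome 6 clusters, with 39 and 9 genes, stand at 0 covered, while 13 of 13 genes are covered in 1 chromosome 13 cluster.

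On chromosome 1, a cluster of 25 tRNA genes (171033942 to 171111515, 16 covered) contains a unit of 5 genes repeated 3 times, in the order Glu CUC, Gly UCC, Asp GUC, Leu CAG and Gly GCC. The copies keep their spacing closely. In every copy the starts of the second and the third gene are 659 bp apart, and those of the third and the fourth 626 bp. The copies did not share their regions. All 5 genes were covered in the unit from n-TEctc5 to n-TGgcc12, but only the last gene, Gly GCC, in the unit ending in n-TGgcc13 and in that ending in n-TGgcc14. The region at n-TGgcc13 had the highest score of all tRNA regions, 7118 at a width of 880 bp, above 99.6% of regions of that width. By contrast, the region at n-TGgcc14 scored 211 at a width of 260 bp. It held only 21.1% of the bases of n-TGgcc14, whereas n-TGgcc13 lay whole inside its region. Sequence identity between the units was not analysed here, and where their genes are copies they carry the uncertainty given for the chromosome 6 clusters.

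Regions at tRNA genes were wide, and for their width their scores were ordinary. Their median width was 1010 bp (quartiles 640 and 1490), against 460 bp over all regions on these chromosomes, and 50.7% were at least 1000 bp wide against 9.65% of all. Their median score was 802 (quartiles 521 and 1133, range 142 to 7118) against 463, and 68 of 201 (33.8%) scored 1000 or more against 13.4% of all regions. Score rises with width in this list. Among the 50 tRNA regions 400 to 800 bp wide the median score was 530.5, below the 635 of all regions of those widths, and the median tRNA region stood at the 48.0th percentile of regions within 50 bp of its own width.

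After n-TGgcc13, the highest scores came from regions shared by neighbours, at 3 serine tRNA genes and at 1 arginine tRNA gene. The region of n-TIaat9 and n-TVcac11 scored 2215, n-TSgct4 2185, that of n-TAagc11 and n-TVaac6 2002, and that of n-TRccg2 and n-TRcct2 1965. n-TSgct8 scored 1873, the pair n-TAagc7 and n-TVcac2 1862, n-TEctc5 with n-TGtcc1 1816, n-TSaga7 1806 and n-TRtcg2 1777. Of these 10 regions, 7 lay on chromosome 13 and the gene named first in each lay at least 1000 bp from the nearest protein-coding gene end. The lowest were at n-TTagt2 (142), n-TYgta8 (146) and n-TRtcg4 (156). The widest were those of n-TAagc13 with n-TYgta7 (5410 bp), of n-TIaat9 with n-TVcac11 (3760 bp) and of n-TGccc7 (3300 bp). In all, 33 regions held more than 1 tRNA gene (71 genes), up to the 4 genes n-TLtaa4, n-TRtct1, n-TVtac1 and n-TVtac2 in 1 region of 2650 bp (chr19:12010241-12012890, score 995).

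Nearness to a protein-coding gene went with coverage. Of tRNA genes with either end of a protein-coding gene within 1000 bp, 42 of 47 were covered (89.4%, 76.9 to 96.4%), of those 1000 to 10000 bp away 96 of 138 (69.6%), and of those farther away 101 of 206 (49.0%). Without the Cys genes the shares were 88.9%, 68.7% and 63.9%. Promoters of such genes often lie in regions too (61.9% of protein-coding promoter windows), and their part in these shares was not tested. Uncovered tRNA genes other than Cys lay a median 435 bp from the nearest region, and 41 of 103 lay within 200 bp. At the 1 bp limit itself, n-TKctt11 (score 238) and n-TRtcg4 (156) shared 1 bp with a region and n-TLaag4 (943) 4 bp, while n-TEttc7 and n-TWcca6 missed one by 5 bp and n-TPtgg7 by 6 bp.

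snoRNA genes were divided by where they lie. Arrays are runs of at least 5 snoRNA genes with gaps of at most 20000 bp and a span of at least 20000 bp. A snoRNA outside an array and inside a protein-coding gene, lncRNA gene or transcribed pseudogene, on either strand, counts as in a host gene. Arrays held 215 genes, of which 49 were covered (22.8%, 17.4 to 29.0%), hosts 563, of which 313 were covered (55.6%, 51.4 to 59.8%), and 508 genes lay outside both, 295 of them covered (58.1%, 53.6 to 62.4%). The interval of the arrays lies below the other two, which overlap.

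The arrays were either empty or densely covered. Inside the lncRNA gene Snhg14, the long transcript of the Prader-Willi domain near Ube3a and Snrpn, the table places 3 arrays on chromosome 7. The first (59347173 to 59619095) holds 134 genes, 128 of them 79 bp long, and 0 were covered. It lies whole inside 348260 bp without any region (59323271 to 59671530), a gap that only 66 of 214653 gaps between neighbouring regions equal or exceed (0.0308%). The next (59673461 to 59807088) holds 51 genes, 48 of them 94 bp long, including Gm26504, for which the table gives the synonym Snord116. Here 39 genes were covered, and 54 regions filled 69.3% of the bases. The third (59859214 to 59904848) holds 19 genes, mostly named Snord116l, with 10 covered and 31 regions over 62.4% of the bases. The genes of the first array carry Gm and LOC symbols that do not name their family. The first region after the gap begins at 59671531 and covers Gm23862, the first gene of the second array.

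**Figure D3:**
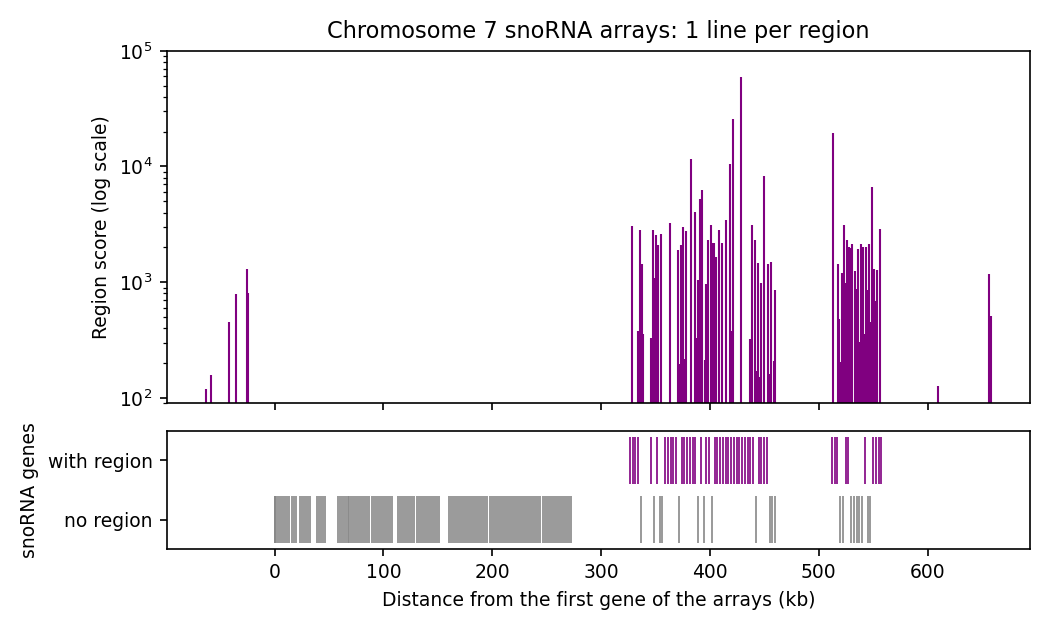
Regions along chromosome 7 around the snoRNA arrays in Snhg14, plotted by distance in kb from the first gene, with 1 line per region and its score on a log axis, and snoRNA genes as ticks in rows with and without a region. No region falls at the 134 genes of the first array, and scores reach 59127 in the second.

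The highest snoRNA scores came from these arrays. The region over Gm22631, Gm25157, Gm25074, Gm22851 and LOC115486763 scored 59127 at a width of 13090 bp. It was followed by Gm25210 (25930), Gm26433 with Snord116l17 (19495), Gm24518 with Gm25944 (11620), and Gm26097 with Gm22258 (8232). Snord116l9 (6601), Gm26332 (5193) and Gm23047 (4040) came next within the arrays. The widest regions after the first were at the group of Gm22417 (12810 bp, score 3236) and at Gm23862 with Gm26504 (8190 bp, 3073). Over the 33 array regions the median score was 2322 and the median width 1590 bp, 21 of them (63.6%) scored 1000 or more, and 4 scored 10000 or more, which 0.113% of all regions did. Identity among these genes was not analysed here. Where they are copies, reads that match several of them carry the same uncertainty as above, and its part in the scores was not tested.

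On chromosome 12, in the Dlk1-Dio3 domain, 0 of 11 snoRNA genes in the array inside the lncRNA gene Rian (109631074 to 109657196) were covered, and 1 region with a score of 248 lies in its span. A further run of 8 snoRNA genes from AF357428 to Gm22205 (109679945 to 109688125), too short to count as an array, had 0 covered. Both runs reach into the same 62140 bp without a region. Of 214653 gaps between neighbouring regions, 6155 are at least as long (2.87%).

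Host genes in which several snoRNAs are strung along successive introns were mostly covered throughout. All 8 snoRNA genes in Gas5, a lncRNA gene that hosts C/D box snoRNAs, lay in 2 regions scoring 1065 and 1055, the first of which (chr1:161035151-161037680) held 6 of them. In Snhg1, 7 of 8 were covered at scores of 852 and 832, with LOC115489081 missing a region by 2 bp. Snhg12 had 4 of 4 (score 702), Snhg5 2 of 2 (3633), Snhg7 2 of 2, Snhg6 1 of 1 (1330), Snhg8 1 of 1 (1435) and Snhg15 1 of 1 (510), while Snhg3 had 1 of 2 (176). Among hosts that encode ribosomal proteins, Rpl13a had 4 of 4 (highest 1177), Rpl3 3 of 3 (1881), Rpl4 2 of 5 (1323), Rps3 1 of 2 (861) and Rpsa 1 of 3 (493). Eif4a2, an RNA helicase of translation initiation, had 5 of 5 (1105) and its paralog Eif4a1 2 of 3 (945). Hspa8, a heat shock cognate chaperone, had 3 of 3 (2107), Nop56, itself a core protein of C/D box particles, 4 of 5 (858), and Atp5b, a subunit of ATP synthase, 1 of 1 (1965).

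Not every host followed. 0 of 4 snoRNA genes were covered in Nop58, the partner of Nop56 in the same particles, and none of those in Snhg9, Eef1b2, Ncl, Tnpo2 and Cct6a was covered. The promoter windows of several of these hosts held a region all the same, scoring 1626 at Cct6a, which encodes a chaperonin subunit, 921 at Eef1b2, 727 at Snhg9 and 366 at Ncl. Rpl5, chosen after its values were seen, had 0 of 3. Over 25 textbook hosts, with Snhg14, Rian and Meg3 left out, 55 of 75 snoRNA genes were covered (73.3%, 61.9 to 82.9%), against 258 of 488 in other hosts (52.9%, 48.3 to 57.4%), and these intervals do not overlap. The 29 regions at the former were 1210 bp wide and scored 945 at the median, the 243 at the latter 420 bp and 677. Hosts that are lncRNA genes had 95 of 134 covered (70.9%) and protein-coding hosts 217 of 428 (50.7%). Outside the listed hosts the highest scores were those of LOC115487268 in 9330159M07Rik (4385) and of Snord37 in Eef2 (3951), a translation elongation factor. Within 1000 bp of a protein-coding gene end, 47 of 64 hosted snoRNA genes were covered (73.4%), against 118 of 225 at 1000 to 10000 bp (52.4%) and 148 of 274 farther away (54.0%).

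Regions at snoRNA genes outside arrays tended to be narrow and centred on the gene, except at named and LOC genes in hosts. Those at tRNA genes were not. Of the 295 covered genes outside arrays and hosts, 245 (83.1%) had their midpoint within 50 bp of the region's midpoint, at a median distance of 17 bp. In host genes this held for 149 of 313 (47.6%), in arrays for 2 of 49, at tRNA genes for 33 of 239 (13.8%), at miRNA genes for 20% and at snRNA genes for 11.1%. Within hosts it held for 111 of 163 Gm genes (68.1%), 31 of 86 LOC genes (36%) and 7 of 64 named genes (10.9%). A narrow region that covers a short gene is bound to lie near it, so regions of at most 500 bp were set side by side. Among these, 353 of 397 snoRNA genes outside arrays (88.9%) were within 50 bp of the midpoint, against 4 of 33 tRNA genes (12.1%), 28.6% of miRNA genes and 8.11% of snRNA genes. This limit matches neither gene length nor region width. The median region was 300 bp wide for these snoRNA genes and 360 bp for these tRNA genes, of which 84.9% and 39.4% lay whole inside. The whole gene lay inside regions for 569 of 657 covered snoRNA genes (86.6%) and 201 of 239 covered tRNA genes (84.1%).

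**Figure D4:**
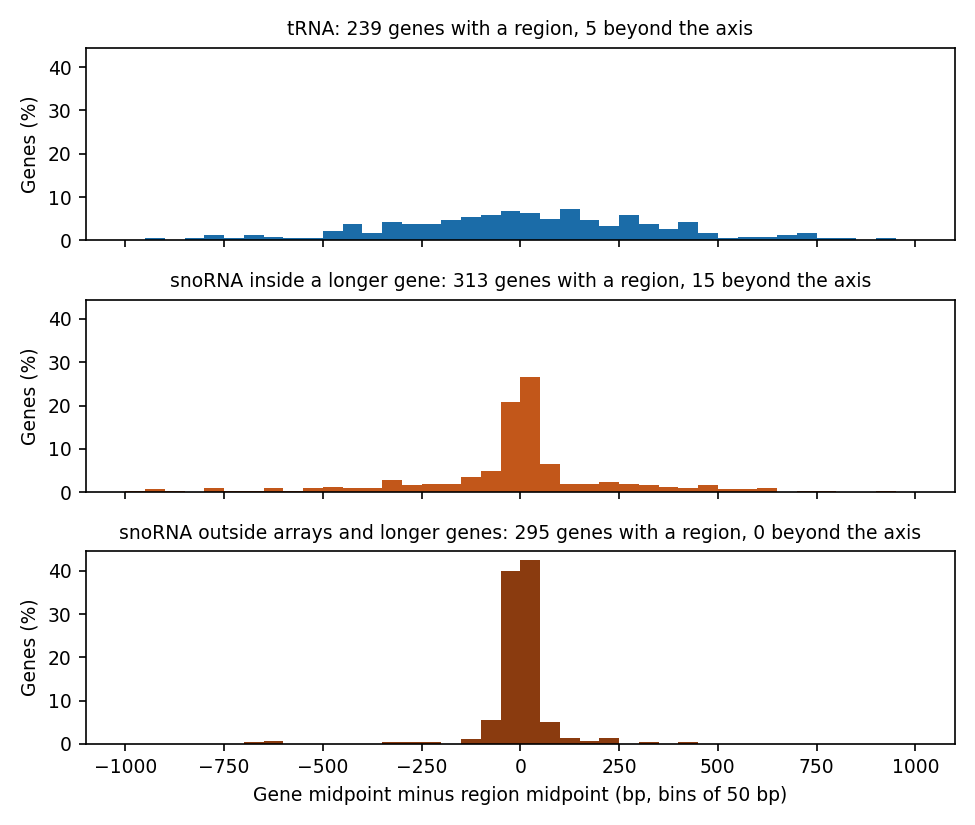
Distance in bp from the midpoint of the region to the midpoint of the covered gene, as percent of covered genes in bins of 50 bp, for tRNA genes and for snoRNA genes inside longer (host) genes and outside both classes. The snoRNA genes outside arrays and hosts pile up at 0 bp (83.1% within 50 bp), whereas tRNA genes are spread (13.8%).

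For their width, regions at snoRNA genes scored high, but outside arrays those at named and LOC genes less so than those at Gm genes. The 600 snoRNA regions had a median score of 633 at a median width of 390 bp (score quartiles 264.5 and 1087, range 111 to 59127), with 177 (29.5%) at 1000 or more. Among the 191 that were 400 to 800 bp wide, the median score was 1036 against 635 for all regions of those widths, and the median snoRNA region stood at the 71.1st percentile at its own width. At 400 to 800 bp, regions outside arrays and hosts had a median of 1134 and those in hosts 923. In hosts the medians at these widths were 1028 at Gm genes, 815 at named genes and 589.5 at LOC genes. The median percentile at own width was 77.6 at Gm, 58.9 at named and 60.5 at LOC genes in hosts. Outside arrays and hosts it was 79.7 at Gm and 58.2 at LOC genes. Outside arrays and hosts, Gm23272 was highest at 2446 in a 640 bp region. The lowest of all snoRNA scores were 111 at Gm25636 in Ipo7 and 112 at Gm23716 and Gm24068, which lie outside hosts. At the 1 bp limit, Gm26188 and LOC115490276 shared 7 bp with a region and Gm25821 9 bp, while after LOC115489081 the closest misses were Gm22571 at 10 bp and Gm25203 at 13 bp.

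**Figure D5:**
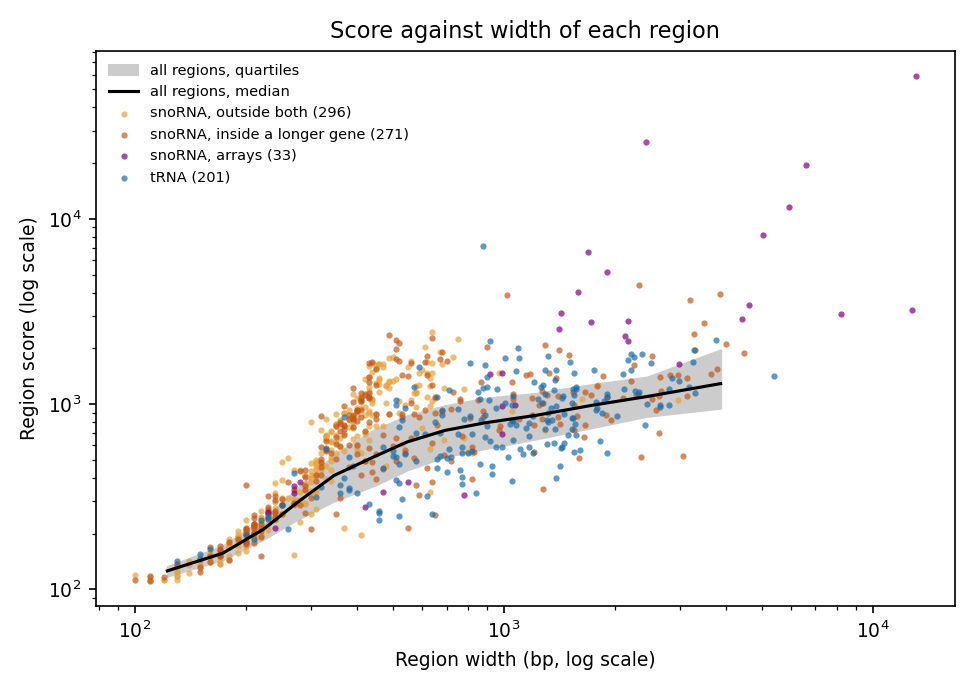
Score against width in bp, both on log axes, for regions at tRNA and snoRNA genes, with the median score of all regions at each width as a line and their quartiles as a band. snoRNA regions of 400 to 800 bp lie mostly above the line (median 1036 against 635), tRNA regions around it (530.5). A region at genes of both host and outside classes is drawn once.

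Most snoRNA genes outside arrays were of like length, as 657 of all 1071 and 412 of the 608 covered had 120 to under 140 bp. Those of 120 to under 140 bp were covered in 412 of 657 cases (62.7%, 58.9 to 66.4%), against 29 of 100 (29%) at 80 to under 120 bp, 88 of 167 (52.7%) at 140 to under 160 bp and 71 of 122 (58.2%) under 80 bp. Among genes with a Gm symbol, which marks a predicted gene without an established name, 370 of 577 genes of 120 to under 140 bp were covered (64.1%) and 36 of 112 of other lengths (32.1%). Outside arrays and hosts, 243 of 386 Gm genes were covered (63.0%, 57.9 to 67.8%) and 50 of 117 LOC genes (42.7%, 33.6 to 52.2%), intervals that do not overlap. In hosts, 163 of 303 Gm genes (53.8%), 86 of 151 LOC genes (57.0%) and 64 of 109 named genes (58.7%) were covered, with intervals that overlap. In hosts, regions at named genes had a median width of 1550 bp and at Gm genes 395 bp, and 10.9% and 68.1% of these genes lay within 50 bp of the midpoint. Outside arrays and hosts, the 50 regions at LOC genes were 200 bp wide and scored 192 at the median, against 350 bp and 625 for the 243 at Gm genes. Predicted snoRNA genes of like length may be copies of each other, and sequence identity among them was not analysed here. Uncovered snoRNA genes lay a median 3126 bp from the nearest region in hosts and 9790 bp outside hosts and arrays, beside 435 bp for tRNA genes other than Cys and 12430 bp for the chromosome 6 tRNA-Cys genes.

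The protein genes that make and use these RNAs were covered without exception among those matched. This held for 23 of 23 genes of RNA polymerase III and its factors, 31 of 31 of tRNA processing and modification, 24 of 24 aminoacyl-tRNA synthetase genes with their scaffold factors, and 15 of 15 genes of snoRNA particle proteins and their assembly, beside 84% of all protein-coding genes. Their promoter windows, from 250 bases before to 50 after the gene start, held a region in 14 of 16, 21 of 21, 17 of 17 and 12 of 12 cases, beside 10189 of 16457 (61.9%) over all protein-coding genes. The median of the highest score per gene was 922, 967, 1064.5 and 1073, beside 977 over all covered protein-coding genes. Their highest scores included 2723 at Fars2, a phenylalanyl-tRNA synthetase, 2113 at Shq1, an assembly factor of H/ACA particles, and 1888 at Polr3k, a subunit of RNA polymerase III. Maf1, which represses that polymerase, had 1685. The lists are not separate from the tRNA and snoRNA regions. Nop56 holds snoRNA regions scoring 858 and 393, and the Ang promoter window has the score, 546, of the region at n-TYgta10 and n-TPtgg5.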

How the data were processed

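DNA of 8 lines was captured with Agilent's SureSelect XT kit for mouse methylation sequencing, bisulfite sequenced and aligned to mm10 with Novoalign 3.7.1, with Picard also used, per the submitters' processing notes and the labels' protocols. The sources used here do not name the region caller, the methylation caller or the filters. The authors deposited 1 list of regions that pools the series, in which every region has its ends and 1 score. The scores are whole numbers from 100 up. Per the file headers it is a narrowPeak track whose name has the words min10 and targets, and 0 columns of single lines were left unmapped. The score is used only to describe and rank regions within the list, since its unit is not given. No test was run. The planned comparison of IDH mutant with wild-type lines had no values per line to use, and the labels do not tie the lines to separate animals. Some of what the labels and files give is not reported here.

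Genes came from a RefSeq table of GRCm38.p6 without strand, which holds 430 tRNA genes (17 on X and 22 mitochondrial, left out) and, beside the 1286 used, 54 snoRNA genes on X, also left out. Overlaps and shares were computed with Python 3.11.15, pandas 2.3.3, numpy 2.4.6 and scipy 1.17.1, in code tested on simulated intervals, and drawn with matplotlib 3.10.9. tRNA clusters are runs of at least 5 genes with gaps of at most 20000 bp. Percentiles compare a score with regions within 50 bp of its width, given 20 or more. Named genes are the 10 highest, 3 lowest and 3 widest regions of each kind, the largest clusters and arrays, listed hosts, and the 3 highest and 3 lowest families of at least 5 genes. Others were chosen after their values were seen. The members, gene lists and classes were chosen with earlier results of these data known. Alternatives were the overlap rule, a score of 200 or more, chromosome X, predicted genes, the array and cluster rules, region width and counting per gene.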

Additional observations from a re-analysis of the deposited data

How the results depend on the processing

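Of 29 alternatives, 18 moved a value by less than its interval and 11 moved it by more. The share of tRNA genes covered, 61.1%, became 51.4% when the whole gene had to lie inside regions, 71.6% with 200 bp added on each side and 77.2% with 1000 bp. The same 3 rules moved the share of snoRNA genes, 51.1%, to 44.2%, 53.9% and 60.1%. Regions with a score of 200 or more covered 44.1% of snoRNA genes, fewer regions being counted, and 59.6% of tRNA genes. Leaving out the Cys genes of chromosome 6 gave 69.7% for tRNA genes, and leaving out the arrays gave 56.8% for snoRNA genes, both chosen after seeing the data. Limiting regions to 400 to 800 bp reversed the order of the medians, from 802 to 530.5 for tRNA and from 633 to 1036 for snoRNA regions, and put the tRNA median below that of all regions (463 over all widths, 635 at these), as width and score are related in this list. Other array and cluster rules moved no share beyond its interval. No paired analysis was possible because the list holds no value per line, and leaving out each line in turn was not run for the same reason. Depth is unknown, so a gene without a region cannot be called unread.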

Other observations

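Chromosome X, left out of the counts above, had regions at 6 of 17 tRNA genes (35.3%, exact 95% interval 14.2 to 61.7%) and at 25 of 54 snoRNA genes (46.3%, 32.6 to 60.4%), beside 5 of 92 miRNA genes (5.43%) and 3 of 72 snRNA genes (4.17%). The covered tRNA genes were 4 of Ala UGC with scores of 400 to 463 (n-TAtgc3, n-TAtgc4, n-TAtgc8 and n-TAtgc1), n-TAcgc2 at 196 and n-TKctt19 at 1240. The snoRNA regions scored 111 to 1500, with a median of 422 at a median width of 360 bp. Gm22266 (1500) and Gm22592 (1461) were highest, and the named genes Snora70 and Snord61 scored 1053 and 410.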
